A study of Mus musculus with 3 samples.

Results

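Chromatin repressor complexes switch genes off by modifying, binding or compacting the histones around which DNA is wrapped. Genes for 48 subunits of such complexes were followed here in mouse embryonic stem (ES) cells that lost *Nr0b1*, also called *Dax1*, an orphan nuclear receptor that acts mainly as a corepressor of transcription. The list was drawn up with earlier results of these data known, so its shares beside those of all genes are description only. The array holds 35019 gene names or identifiers. The 48 genes were found by name, as probes of the array that carry one of their symbols. They were grouped as Polycomb (17 genes, 6 of PRC2 and 11 of PRC1), H3K9 methylation (11 genes), CAF-1 (2 genes), NuRD (10 genes), CoREST (3 genes) and nuclear receptor corepressors (5 genes). All 48 were measured by 74 probes and all 48 passed the filter on dim probes, on which 22442 genes were left for testing.

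Polycomb repressive complex 2 (PRC2) methylates histone H3 at lysine 27 and PRC1 ubiquitinates histone H2A, and in ES cells both sit on silent developmental genes. Methylation of histone H3 at lysine 9 (H3K9) marks silent repeats, retroviral sequences and germline genes, and is read by the HP1 proteins. CAF-1 deposits histones behind the replication fork, and its loss is known to let ES cells express genes of the 2-cell embryo. NuRD, CoREST and the Ncor1 and Sin3a complexes carry histone deacetylases, and CoREST in addition holds the demethylase Kdm1a.

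Every group was made from the male ES cell line EB5, derived from E14tg2a, in which exon 2 of *Nr0b1* was flanked by loxP sites. The cells also carried piggyBac transgenes for MerCreMer, a Cre recombinase that works only in the presence of tamoxifen, and for Egfp, so controls and knockouts share these alleles. The floxed group (genotype Dax1 flox/Y) had no tamoxifen, the induced KO 4 days group (Dax1 flox/Y + Cre 4days) was taken 4 days after tamoxifen, and the KO group (Dax1 KO/Y) had gone through several passages after the deletion. Each group held 3 arrays, which the study describes as biological triplicates. The sources do not say whether these were separate cultures, nor which array is which replicate, so p-values measure the spread between these arrays. The cells were kept with or without mouse embryonic fibroblast feeders, and which applied to the arrays is not stated.

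Signal was the background-subtracted Cy3 intensity of a spot. It is given below as the scaled log2 signal, that is log2 of the intensity minus the 75th percentile of the array, so 0 is the level that 75% of spots lie under. Between 51.8% and 58.4% of probes were well above background on an array, and the probe standing for each member was well above background on all 9 arrays. *Nr0b1* fell 101-fold in induced KO 4 days and at least 357-fold in KO against floxed, where it was not well above background. All 10 ES cell markers were well above background on all 9 arrays. The 3 floxed arrays and induced KO 4 days array 1 were on slide 1, and the other 5 arrays on slide 2. Floxed and KO therefore share no slide, and their difference cannot be told apart from slide except through the induced KO 4 days arrays.

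In KO cells more members were lower than higher, and by small amounts. Against floxed, 24 of 48 members were lower at an adjusted p under 0.05 (limma), which is 50% of members beside 26.4% of all genes tested. The 24 include *Gatad2a* and *Rbbp4*, whose probes disagree in direction, and without them 22 members were lower, 45.8%. There were 3 higher members, 6.25% beside 20.5% of all genes. The median log2 fold change of the members was -0.23, and that of all genes was -0.06. The differences were modest in size. *Cbx7* was the only member past 2-fold, 2.08% of members beside 7.56% of all genes, and 39 of 48 members had an estimate within 0.5 on the log2 scale.

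Those counts depended on the scaling and on the slides. With quantile normalization 15 members were lower, 31.2% beside 24.6% of all genes, and 4 were higher, 8.33% beside 22.1%. The median was -0.13 and all 15 were among the 24. With slide as a block 12 members were lower, 25% beside 12.2% of all genes, and all 12 were among the 24. The 3 higher calls were lost, 0% of members beside 9.57% of all genes. The median was then -0.29. Without KO array 1 the count of higher members was 1. The members lower under both of these settings as well included *Cbx7*, *Ctbp2*, *Mta1*, *Chaf1b*, *L3mbtl2*, *Cbx1*, *Hells* and *Mga*.

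After 4 days the members had moved little. 5 members were lower, 10.4% beside 14.7% of all genes, and 1 was higher, 2.08% beside 11.9% of all genes. No member's estimate reached 2-fold, while 2.5% of all genes passed that limit. The 5 lower members were *Ctbp2*, *Mta1*, *Rbbp7*, *Cbx7* and *Hdac3*, and the higher one was *Trim28*. The median was -0.08, close to the -0.06 of all genes. These counts rest on the brightest probe of each gene. Tested probe by probe with limma, the dimmer *Cbx5* probe was at -0.50 ± 0.08 after 4 days (adjusted p = 0.00361). The dimmer *Suv39h2* probe was at -0.45 ± 0.11 (adjusted p = 0.0212). In the other direction, a dimmer *Gatad2a* probe was at 0.41 ± 0.08 (adjusted p = 0.0093). A dimmer *Cbx1* probe was at 0.29 ± 0.08 (adjusted p = 0.038). *Ctbp2* and *Rbbp7* alone were still called with slide as a block (9.91% of all genes called) and on slide 1 only (7.08% of all genes), where 1 induced array stands against 3 floxed arrays and is assumed to vary like the rest. Without floxed array 1 or 2 the count of lower members was 2, without floxed array 3 or induced array 1 or 2 it was 3, and without induced array 3 it was 7. *Trim28* was not called without any 1 of the 6 arrays.

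Between the 2 deleted groups, KO over induced KO 4 days, 17 members were lower (35.4%, beside 14.1% of all genes) and 1 was higher (2.08%, beside 12.1%). No member was past 2-fold, a limit that 3.42% of all genes passed. The median of the members was -0.14 and that of all genes 0.01. With slide as a block 14 members were lower, 29.2% beside 11.1% of all genes (20.2% of all genes called either way). On slide 2 only, with 3 KO and 2 induced arrays, 8 were lower, 16.7% beside 5.97% (12.4% of all genes called either way). Under both, which give the same estimates, the higher call was lost. Those 8 were *Cbx1*, *Cbx7*, *Ctbp2*, *Ezh2*, *Hells*, *L3mbtl2*, *Mga* and *Rcor2*. The 3 comparisons share arrays, so their counts are not independent of each other.

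**Figure D1:**
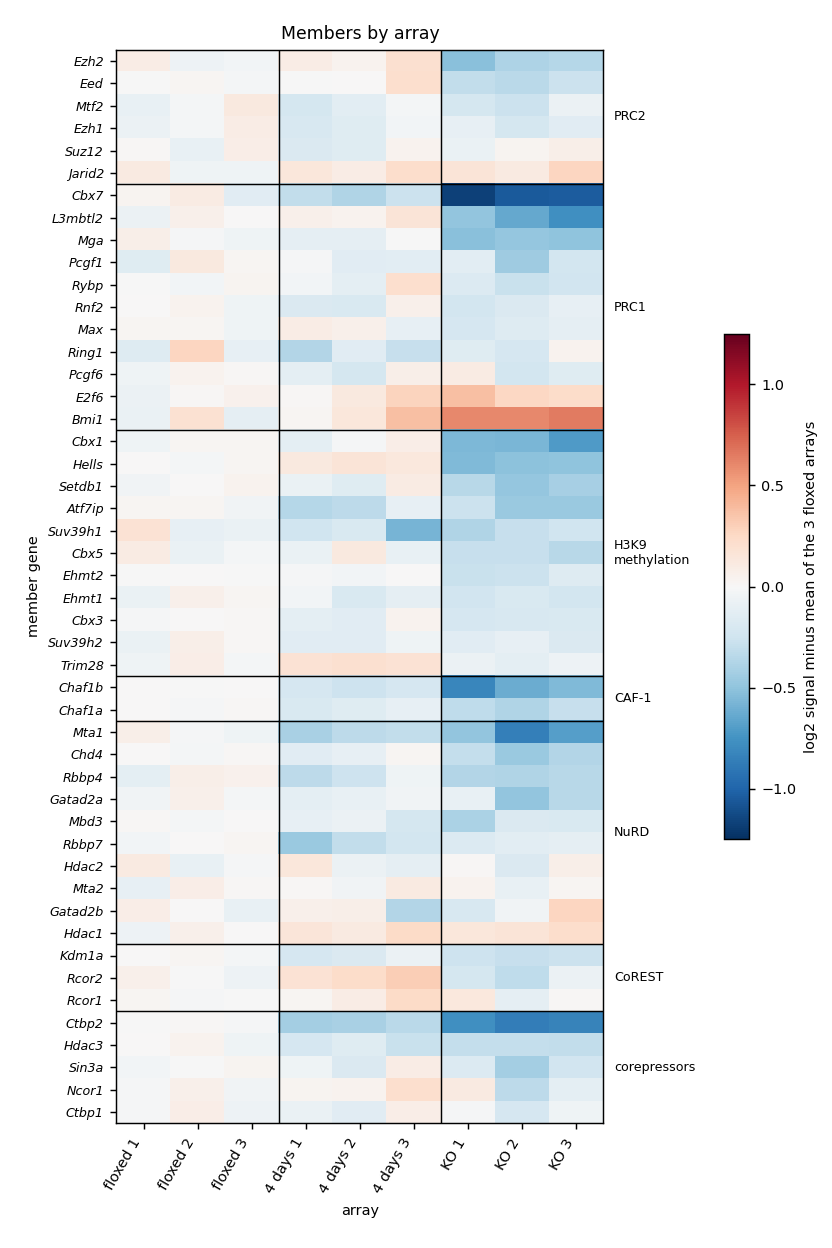
Each row is 1 of the 48 members and each column 1 of the 9 arrays (3 floxed, 3 induced KO 4 days, 3 KO), with the colour giving the scaled log2 signal minus the mean of the 3 floxed arrays (log2 units) and rows ordered within each complex by KO over floxed. The KO columns are mostly blue, with *Cbx7* the darkest row, and *Bmi1* and *E2f6* are the rows that turn red.

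**Figure D2:**
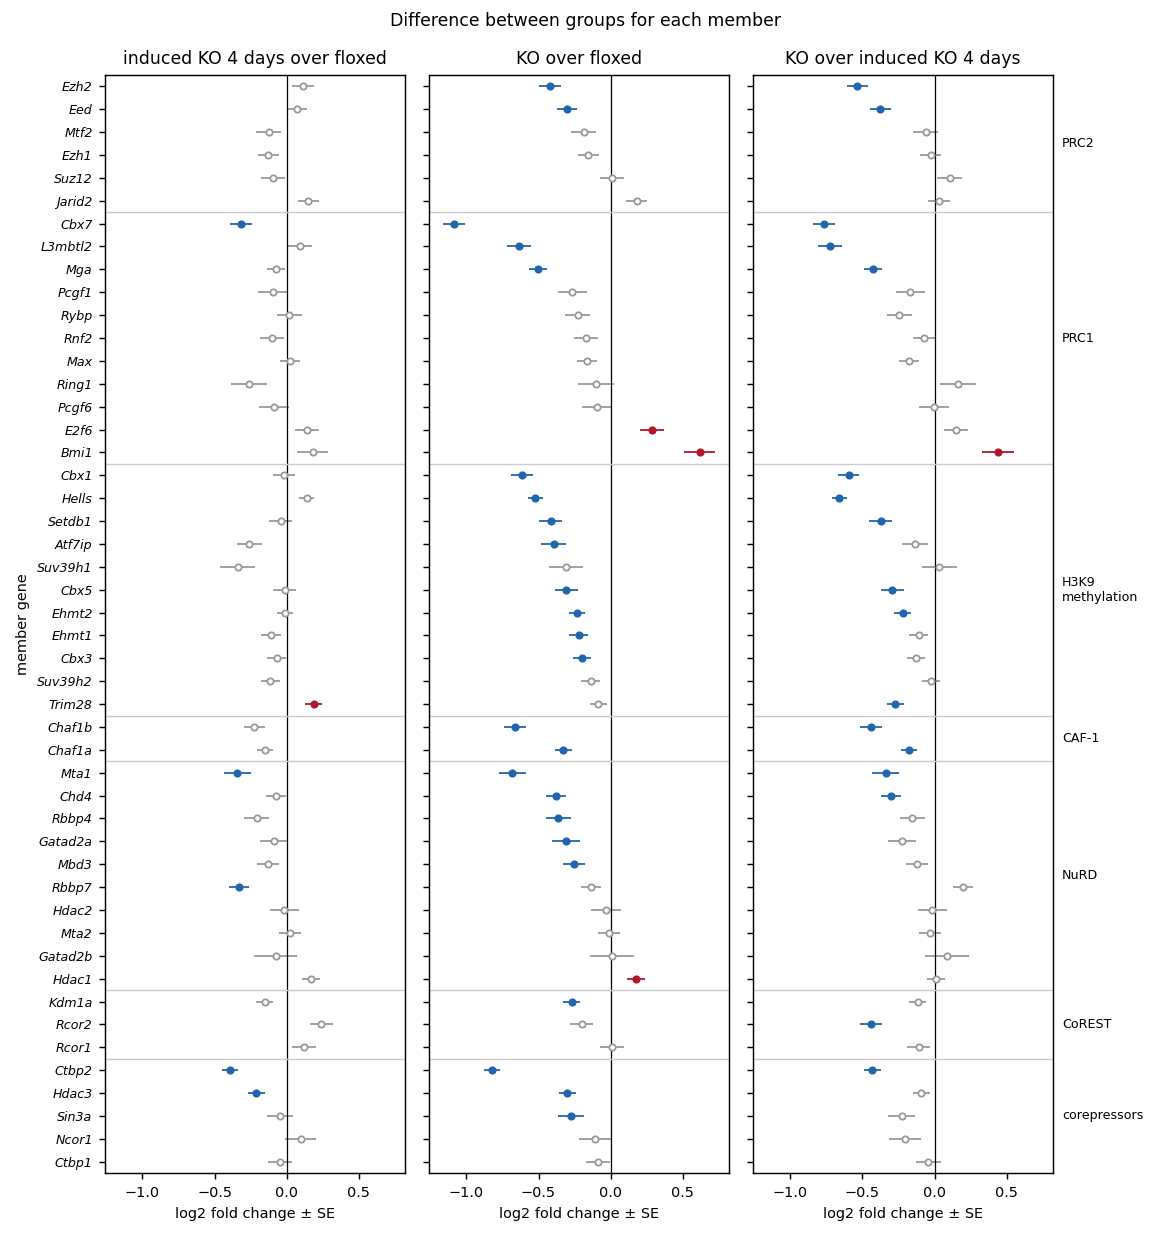
Log2 fold change of each of the 48 members in the 3 comparisons, with bars of 1 standard error from the limma fit of 9 arrays; filled blue points were lower and filled red points higher at an adjusted p under 0.05, open grey points did not pass. Lower members number 5, 24 and 17 from left to right, and only *Cbx7* in KO over floxed lies past 2-fold (below -1).

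Within PRC2, the catalytic subunit and one core partner were lower in KO and the remaining 4 of 6 genes did not pass. Against floxed 33.3% of PRC2 genes were lower, near the 26.4% of all genes. *Ezh2*, the main H3K27 methyltransferase of dividing cells, had a scaled log2 signal of 3.20, 3.05 and 3.07 on the floxed arrays, 3.20, 3.15 and 3.31 after 4 days, and 2.58, 2.72 and 2.75 in KO. The 3 KO arrays lay below all 6 others, and the first 2 groups overlapped. KO over floxed was -0.42 ± 0.08 (SE, n = 3 against 3, adjusted p = 0.00193), and KO over induced KO 4 days was -0.53 ± 0.08 (adjusted p = 0.00138). *Eed*, which binds methylated H3K27 and stimulates the enzyme, read 5.44, 5.47 and 5.42 in floxed, 5.44, 5.45 and 5.66 after 4 days, and 5.14, 5.11 and 5.18 in KO, again with the KO arrays below the rest. It fell by 0.30 ± 0.07 in KO over floxed (adjusted p = 0.00748), a call lost with quantile normalization. With slide as a block neither gene was called in KO over floxed, with adjusted p = 0.0687 for *Ezh2* and 0.0555 for *Eed*.

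The other 4 PRC2 genes did not pass. *Suz12*, the scaffold of the complex, differed by 0.01 between KO and floxed with a 95% confidence interval of -0.18 to 0.20, and the estimate for *Ezh2* lies outside that interval. *Ezh1*, the other methyltransferase, and the accessory subunits *Mtf2* and *Jarid2* had estimates of -0.15, -0.19 and 0.18 in KO over floxed. The interval for *Jarid2* was 0.01 to 0.35, and it was called higher with quantile normalization, with an intensity trend and without floxed array 1. After 4 days 0 of 6 PRC2 genes were called with limma, and at an unadjusted p under 0.05 the count was also 0. Among all genes 14.7% were called lower and 11.9% higher after 4 days at the adjusted p. At the unadjusted p the shares of all genes are at least as large.

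PRC1 genes went both ways. In KO over floxed 27.3% were lower and 18.2% higher, near the 26.4% and 20.5% of all genes. *Cbx7*, the chromobox protein that reads H3K27 methylation in ES cell PRC1, was the member with the largest fall. Its brightest probe, at chr15:79746240-79746299 (mm9), read 1.52, 1.59 and 1.35 in floxed, 1.18, 1.11 and 1.22 after 4 days, and 0.32, 0.44 and 0.44 in KO. None of the 3 groups overlapped. The fall was 0.32 ± 0.08 after 4 days (adjusted p = 0.0183) and 1.09 ± 0.08 in KO over floxed (adjusted p = 1.36e-05), a fold of 2.12. The 4-day call was lost on slide 1 only (adjusted p = 0.182), and without floxed array 1, floxed array 2 or induced array 2.

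*L3mbtl2* and *Mga*, subunits of the variant PRC1.6 that binds germline genes, were lower in KO but not after 4 days. *L3mbtl2* read 0.88, 1.01 and 0.95 in floxed, 1.01, 0.99 and 1.11 after 4 days, and 0.45, 0.31 and 0.18 in KO, a difference of -0.63 ± 0.08 between KO and floxed (adjusted p = 0.000329). *Mga*, the DNA-binding scaffold of PRC1.6, read -0.89, -0.98 and -1.02 in floxed, -1.08, -1.07 and -0.97 after 4 days, and -1.49, -1.45 and -1.46 in KO, a difference of -0.50 ± 0.06 (adjusted p = 0.000227). For both genes the KO arrays lay apart from the 6 others.

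*E2f6*, the E2F family member of the same variant complex, differed in the other direction. It read 2.07, 2.16 and 2.19 in floxed, 2.16, 2.26 and 2.42 after 4 days, and 2.51, 2.40 and 2.37 in KO. It was higher by 0.29 ± 0.08 in KO over floxed (adjusted p = 0.0185), a call lost with slide as a block, where the value was 0.11, and without floxed array 1 or KO array 1. *Max*, the dimer partner of Mga, and *Pcgf6*, the subunit that defines PRC1.6, did not pass and had estimates of -0.16 and -0.09.

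*Bmi1*, which defines a canonical PRC1, was the member with the largest rise. Its signals were -0.22, 0.05 and -0.25 in floxed, -0.12, 0.01 and 0.24 after 4 days, and 0.46, 0.47 and 0.51 in KO. KO arrays lay above all others, with differences of 0.62 ± 0.11 over floxed (adjusted p = 0.00175) and 0.44 ± 0.11 over induced KO 4 days (adjusted p = 0.0188). With slide as a block the KO over floxed value was 0.38 (adjusted p = 0.185). The call over induced KO 4 days was lost without induced array 1 or 2 or KO array 3. The ubiquitin ligases *Rnf2* and *Ring1* and the subunits *Pcgf1* and *Rybp* had estimates between -0.27 and -0.10 in KO over floxed, and none passed.

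Genes of the H3K9 methylation group leaned one way in KO. Against floxed 8 of 11 were lower, 72.7% beside 26.4% of all genes, and 0 were higher, beside 20.5%. All 11 estimates were negative, as were 57.6% of those of all genes. With quantile normalization 5 of 11 were lower, where 24.6% of all genes were, and with slide as a block 3, where 12.2% were. Those called in all 3 fits were *Cbx1*, *Hells* and *Atf7ip*. At an unadjusted p under 0.05, which at least 20.5% of all genes passed as higher, no H3K9 gene was higher in KO either.

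*Cbx1*, which encodes HP1 beta, read 4.00, 4.07 and 4.07 in floxed, 3.93, 4.03 and 4.13 after 4 days, and 3.48, 3.48 and 3.34 in KO. It fell by 0.61 ± 0.07 in KO over floxed (adjusted p = 0.000216), and the floxed and 4-day arrays overlapped. *Hells*, an ATP-dependent remodeller needed for DNA and H3K9 methylation at repeats, was the most tightly measured member that fell. Its probe, at chr19:39039914-39039973 (mm9), read 1.95, 1.92 and 1.98 in floxed, 2.07, 2.11 and 2.08 after 4 days, and 1.40, 1.44 and 1.44 in KO. The 4-day arrays lay above floxed by 0.14 ± 0.05, which did not pass (adjusted p = 0.086) except with quantile normalization. KO lay below floxed by 0.52 ± 0.05 (adjusted p = 8.05e-05).

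The methyltransferase *Setdb1* and its partner *Atf7ip* were both lower in KO. *Setdb1*, which silences retroviral sequences, read 1.12, 1.17 and 1.21 in floxed, 1.08, 1.02 and 1.27 after 4 days, and 0.82, 0.68 and 0.75 in KO, a fall of 0.42 ± 0.08 (adjusted p = 0.00262, and 0.0603 with slide as a block). *Atf7ip*, which keeps Setdb1 in the nucleus, read 1.91, 1.91 and 1.84 in floxed, 1.53, 1.56 and 1.78 after 4 days, and 1.62, 1.43 and 1.43 in KO. Its 4-day arrays already lay below floxed, by 0.26 ± 0.09, short of the threshold (adjusted p = 0.0575). The KO value was -0.40 ± 0.09 (adjusted p = 0.00548).

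*Trim28*, the adaptor through which KRAB zinc finger proteins recruit Setdb1, followed another course. Its signal was 6.38, 6.52 and 6.41 in floxed, 6.62, 6.64 and 6.61 after 4 days, and 6.37, 6.32 and 6.37 in KO. The 4-day arrays lay above both other groups. The difference from floxed was 0.19 ± 0.06 after 4 days (adjusted p = 0.0461). In KO it was -0.09, with an interval of -0.22 to 0.05, and turned to 0.02 with quantile normalization. KO lay below induced KO 4 days by 0.27 ± 0.06 (adjusted p = 0.00993), a call lost on slide 2 only (adjusted p = 0.0957).

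*Ehmt2*, which encodes G9a, the main enzyme for H3K9 dimethylation, read 6.06, 6.07 and 6.05 in floxed, 6.05, 6.03 and 6.06 after 4 days, and 5.78, 5.79 and 5.90 in KO. After 4 days the difference was -0.01, with an interval of -0.14 to 0.12, and with quantile normalization it was 0.09. In KO over floxed it was -0.24 ± 0.06 (adjusted p = 0.00844), a call lost with quantile normalization and with slide as a block. Its partner *Ehmt1* fell by 0.22 and the HP1 genes *Cbx5* and *Cbx3* by 0.31 and 0.20 in KO over floxed, calls that were each lost with slide as a block. The *Cbx3* call was also lost without any 1 of the 6 arrays compared, and the *Ehmt1* call without floxed array 2 or 3 or KO array 1 or 3. Tested probe by probe with limma, the dimmer *Ehmt1* probe fell by 0.48 ± 0.07 (adjusted p = 0.00104). The dimmer *Cbx3* probe fell by 0.34 ± 0.10 (adjusted p = 0.019). *Suv39h1* and *Suv39h2*, the enzymes of pericentromeric H3K9 trimethylation, had estimates of -0.31 and -0.14 and did not pass (adjusted p = 0.0635 and 0.111).

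Both genes of the CAF-1 group, *Chaf1b* and *Chaf1a*, fell in KO over floxed, where 26.4% of all genes were lower. *Rbbp4*, a histone chaperone that CAF-1 shares, was grouped with NuRD, and its probes disagree in direction. *Chaf1b*, the p60 subunit, had a signal of 4.73, 4.72 and 4.74 in floxed, 4.52, 4.47 and 4.52 after 4 days, and 3.91, 4.11 and 4.18 in KO. *Chaf1a*, the p150 subunit, read 2.69, 2.67 and 2.70 in floxed, 2.49, 2.53 and 2.58 after 4 days, and 2.37, 2.31 and 2.39 in KO. For both genes the 3 groups did not overlap and the 4-day arrays lay in between. The falls in KO over floxed were 0.66 ± 0.07 for *Chaf1b* (adjusted p = 0.00015) and 0.33 ± 0.06 for *Chaf1a* (adjusted p = 0.00142), and both were called with quantile normalization and with slide as a block. After 4 days the estimates were -0.22 and -0.15, neither of which passed (adjusted p = 0.0566 and 0.0805). Tested probe by probe with limma, the other kept *Chaf1b* probe fell by 0.29 ± 0.07 after 4 days (adjusted p = 0.0222). *Chaf1b* was called lower after 4 days with normexp correction, the stricter filter, the mean of probes, only the arrays compared and an intensity trend. It was not called under the other alternatives, and *Chaf1a* was called with the trend only.

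In NuRD, which couples a remodeller to deacetylases, 5 of 10 genes were lower in KO over floxed, 50% beside 26.4% of all genes. There was 1 higher gene, 10% beside 20.5%. The 5 include *Gatad2a* and *Rbbp4*, whose probes disagree in direction. Without them 3 of 10 were lower, and this 30% lay near the share of all genes. With quantile normalization 2 of 10 were lower, where 24.6% of all genes were. *Mta1*, a scaffold that binds the deacetylases, read 1.04, 0.94 and 0.91 in floxed, 0.56, 0.64 and 0.65 after 4 days, and 0.47, 0.10 and 0.27 in KO. It fell by 0.34 ± 0.09 after 4 days (adjusted p = 0.0275) and by 0.68 ± 0.09 in KO (adjusted p = 0.000437). No 2 groups overlapped, and the 4-day call was lost on slide 1 only (adjusted p = 0.0734) and without floxed array 1, 2 or 3 or induced array 1 or 2. Its paralog *Mta2* differed by -0.01 in KO over floxed, with an interval of -0.18 to 0.16.

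*Chd4*, the ATPase of NuRD, read 5.54, 5.50 and 5.55 in floxed, 5.39, 5.43 and 5.55 after 4 days, and 5.23, 5.07 and 5.16 in KO. KO over floxed was -0.38 ± 0.07 (adjusted p = 0.00205). The histone chaperone *Rbbp7* had its lowest level at 4 days: it read 5.04, 5.08 and 5.10 in floxed, 4.61, 4.76 and 4.84 after 4 days, and 4.90, 4.94 and 4.96 in KO. It fell by 0.33 ± 0.07 after 4 days (adjusted p = 0.00993) and did not pass in KO over floxed, at -0.14. *Hdac1* rose by 0.17 ± 0.06 in KO over floxed (adjusted p = 0.0477), a call lost without any 1 of the 6 arrays compared. Tested probe by probe with limma, that brightest probe had adjusted p = 0.0563. The dimmer *Hdac1* probes rose by 0.33 ± 0.08 (adjusted p = 0.00752) and 0.27 ± 0.07 (adjusted p = 0.0098). The related deacetylase *Hdac2* differed by -0.03, with an interval of -0.26 to 0.20. *Mbd3*, the subunit that sets NuRD apart from its variant with Mbd2, fell by 0.25, and that call was lost without floxed array 1, 2 or 3 or KO array 1.

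The 3 CoREST genes each had their own course. *Kdm1a*, the H3K4 demethylase LSD1, read 4.29, 4.31 and 4.26 in floxed, 4.08, 4.10 and 4.21 after 4 days, and 4.03, 4.00 and 4.01 in KO, with no overlap between groups. It differed from floxed by -0.15 after 4 days (interval -0.29 to -0.02, adjusted p = 0.0867) and by -0.27 ± 0.06 in KO (adjusted p = 0.00491), a fold of 1.21. The KO call was lost with quantile normalization and with slide as a block (adjusted p = 0.0563). *Rcor2*, the CoREST scaffold enriched in ES cells, read 5.18, 5.11 and 5.06 in floxed, 5.30, 5.34 and 5.43 after 4 days, and 4.90, 4.80 and 5.05 in KO. The 4-day arrays lay above floxed by 0.24 ± 0.08 (adjusted p = 0.0536) and the KO arrays lay below the 4-day arrays by 0.44 ± 0.08 (adjusted p = 0.0042). The paralog *Rcor1* had an estimate of 0.01 in KO over floxed and did not pass in any comparison.

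Among the nuclear receptor corepressors, *Ctbp2* stood first. This NADH-binding corepressor, probed at chr7:140179625-140179684 (mm9), read 4.53, 4.56 and 4.52 in floxed, 4.11, 4.13 and 4.20 after 4 days, and 3.77, 3.67 and 3.70 in KO. The 3 groups lay apart. The fall was 0.39 ± 0.06 after 4 days (adjusted p = 0.00184) and 0.82 ± 0.06 in KO over floxed (adjusted p = 1.11e-05), and it was called in all 3 comparisons under all alternatives tried. Its paralog *Ctbp1* differed by -0.05 and -0.09, and did not pass.

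*Hdac3*, the deacetylase of the Ncor1 complex, read 0.57, 0.61 and 0.51 in floxed, 0.36, 0.41 and 0.29 after 4 days, and 0.27, 0.26 and 0.25 in KO. It fell by 0.21 ± 0.06 after 4 days (adjusted p = 0.0312) and by 0.30 ± 0.06 in KO (adjusted p = 0.00303), with slide as a block giving adjusted p = 0.197 and 0.114. The 4-day call was lost without floxed array 1, 2 or 3 or induced array 1 or 3. *Sin3a*, a deacetylase scaffold, fell by 0.28 ± 0.09 in KO over floxed (adjusted p = 0.0369), and without floxed array 1, 2 or 3 or KO array 2 or 3 that call was lost. *Ncor1*, which nuclear receptors recruit when no activating ligand is bound, had an estimate of -0.11 at its brightest probe and did not pass, while another of its probes rose.

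Several members were covered by more than 1 probe, and the probes of a gene did not always move alike. Of 74 member probes, 70 passed the filter, and 17 members kept over 1 probe. Tested probe by probe over 31190 probes, 32 of the 70 were lower in KO over floxed (45.7%, beside 25.6% of all probes) and 9 were higher (12.9%, beside 19.7%). In 13 of the 17 members every kept probe had the same sign in KO over floxed. In 2 members, *Gatad2a* and *Rbbp4*, kept probes passed in opposite directions.

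For *Gatad2a*, the NuRD subunit p66 alpha, the brightest probe starts at base 3195 of its transcript and fell by 0.31 ± 0.10 in KO over floxed (adjusted p = 0.0313), while the probes starting at base 3632 and base 5148 were higher by 0.34 ± 0.08 (adjusted p = 0.00602) and 0.90 ± 0.08 (adjusted p = 5.84e-05). For *Rbbp4*, a histone chaperone shared by NuRD, PRC2 and CAF-1, the probe at base 1757 fell by 0.36 ± 0.09 (adjusted p = 0.00953) and the probe at base 4068 was higher by 1.06 ± 0.26 (adjusted p = 0.00992). The rising *Rbbp4* probe was dim, with a mean signal of -2.89 in floxed against 5.38 for the falling one. It was well above background on 8 of the 9 arrays. In both genes the probe farther along the transcript was the higher one. With the mean of all probes of a gene, KO over floxed was 0.31 for *Gatad2a* and 0.35 for *Rbbp4*, the opposite direction to the brightest probe, so no single direction is given for these 2 genes.

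*Ncor1* kept 4 probes, of which the one at base 2932 was higher in KO over floxed by 0.34 ± 0.08 (adjusted p = 0.0102) and after 4 days by 0.36 ± 0.08 (adjusted p = 0.0162), and the others did not pass in either. *Cbx7* also depended on the probe. The probe at base 2830 carried the fall of 1.09, and the dimmer probe at base 965 differed by -0.13 ± 0.17 (adjusted p = 0.561). *Suv39h2* and *Cbx5* went the other way round, with the larger falls at the earlier probe: -0.78 ± 0.11 at base 1715 against -0.14 ± 0.07 at base 4123 for *Suv39h2*, and -0.59 ± 0.08 at base 1121 against -0.31 ± 0.08 at base 3040 for *Cbx5*. Both *Bmi1* probes rose in KO over floxed, by 0.62 and 1.04, and both kept *Chaf1b* probes fell, by 0.66 and 0.77. All 3 *Cbx1* probes fell, by 0.64, 0.25 and 0.61.

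**Figure D3:**
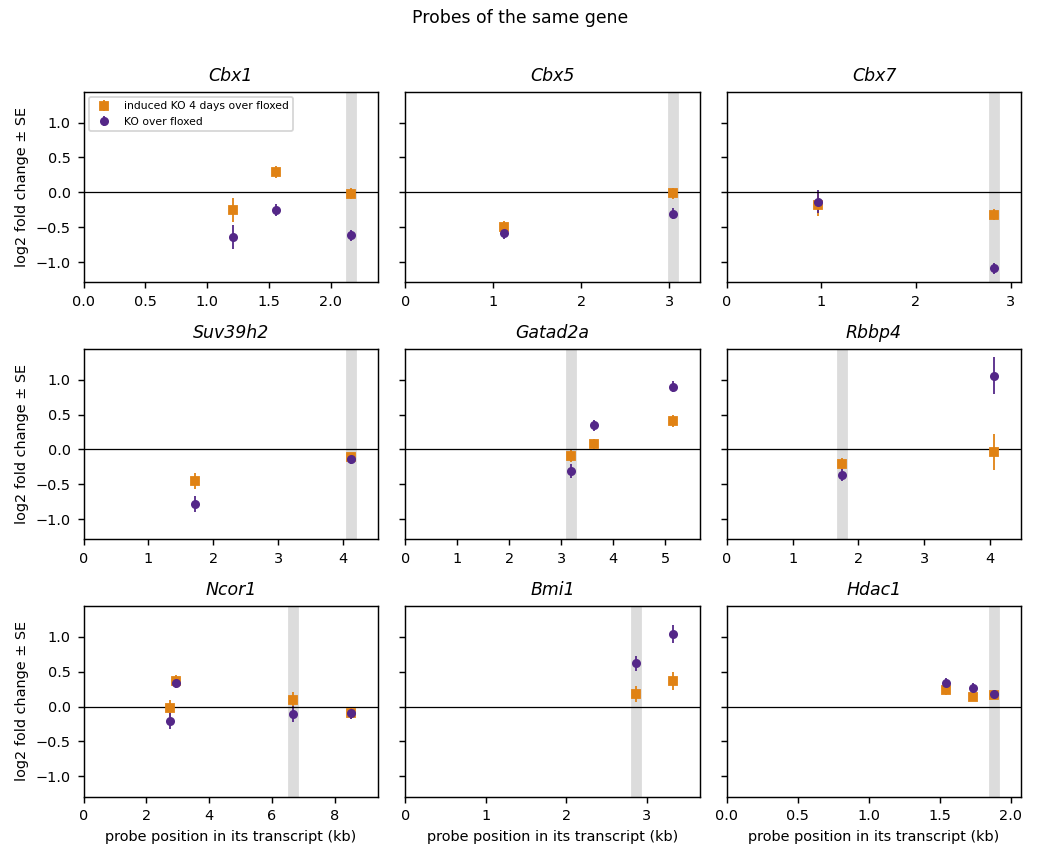
Log2 fold change (± SE of the probe-by-probe limma fit, 3 arrays per group) against the position in kb at which the probe starts in the transcript it was designed on, for 9 members with over 1 kept probe; squares are induced KO 4 days over floxed, circles KO over floxed, and the grey band marks the brightest probe, which stands for the gene. *Gatad2a* and *Rbbp4* cross 0 along the transcript, *Cbx7* falls at its later probe only, and *Bmi1* and *Hdac1* keep one sign.

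Other genes of the same pathways numbered 87, of which 86 were tested. In KO over floxed 41 were lower (47.7%, beside 26.4% of all genes) and 17 higher (19.8%, near the 20.5% of all genes), with a median of -0.23. After 4 days 18 were lower (20.9%, beside 14.7%) and 8 higher (9.3%, beside 11.9%). With slide as a block 21 were lower and 8 higher in KO, where 12.2% and 9.57% of all genes were. Among the other Polycomb genes 9 of 23 were lower and 9 higher in KO, 39.1% each, and 5 each with slide as a block. *Tfdp1*, the E2F dimer partner, fell by 1.35 and *Phf19*, a PRC2 accessory subunit, by 1.24, while *Kdm2b*, which brings variant PRC1 to CpG islands, rose by 0.94, and had already risen by 0.98 after 4 days. Of the other H3K9 genes 10 of 15 were lower and 1 was higher, *Zfp809*, a zinc finger protein that recruits Trim28 to retroviral DNA, by 1.69.

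Of the other histone chaperones 7 of 11 were lower in KO and 0 higher with limma (1 at an unadjusted p under 0.05), beside the 2 CAF-1 genes. At the adjusted p, 26.4% of all genes were lower and 20.5% higher in KO over floxed, and 12.2% and 9.57% with slide as a block. *Hira*, which deposits histone H3.3 outside S phase, fell by 0.95, and *Asf1b*, which hands histones to CAF-1, by 0.59. Of the other NuRD genes 3 of 6 were lower and 2 higher, and 2 and 1 with slide as a block, with *Zmynd8* at -1.43 and *Mbd2*, the alternative to Mbd3, at 0.63. Of the other CoREST genes 5 of 9 were lower and 2 higher, led by *Gse1* at -0.94, and every one of these calls was lost with slide as a block. Among 22 other corepressors 7 were lower (31.8%) and 3 higher (13.6%), and 2 and 1 with slide as a block. *Rest*, the neuronal gene silencer, was at -0.84 and *Sap18*, a Sin3a partner, at 1.20.

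Cell cycle genes moved with the members. Of 23 S phase genes tested, 18 were lower in KO over floxed (78.3%, beside 26.4% of all genes) and 1 higher (4.35%, beside 20.5%), with a median of -0.40. Of 21 G2 and M genes 15 were lower (71.4%) and 0 higher with limma, with the same median of -0.40. At an unadjusted p under 0.05, which at least 20.5% of all genes passed as higher, the higher count was also 0. *Ccne1*, the G1/S cyclin E1, fell by 1.06 and *Pcna*, the replication clamp, by 0.79, next to *Chaf1b*, *Hells* and *Ezh2*, which dividing cells are known to express more. The mean level of the S phase list was 3.61 to 3.62 on floxed arrays, 3.46 to 3.53 after 4 days, and 3.19 to 3.26 in KO. After 4 days 5 S phase genes (21.7%) and 6 G2 and M genes (28.6%) were lower, beside 14.7% of all genes, and 1 S phase gene was higher (4.35%, beside 11.9%). With slide as a block 11 S phase and 10 G2 and M genes were lower in KO, beside 12.2% of all genes. After 4 days 3 G2 and M genes were then lower, beside 5.16% of all genes, and the S phase calls were lost. The part of cell cycle genes in the members' falls was not tested.

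**Figure D4:**
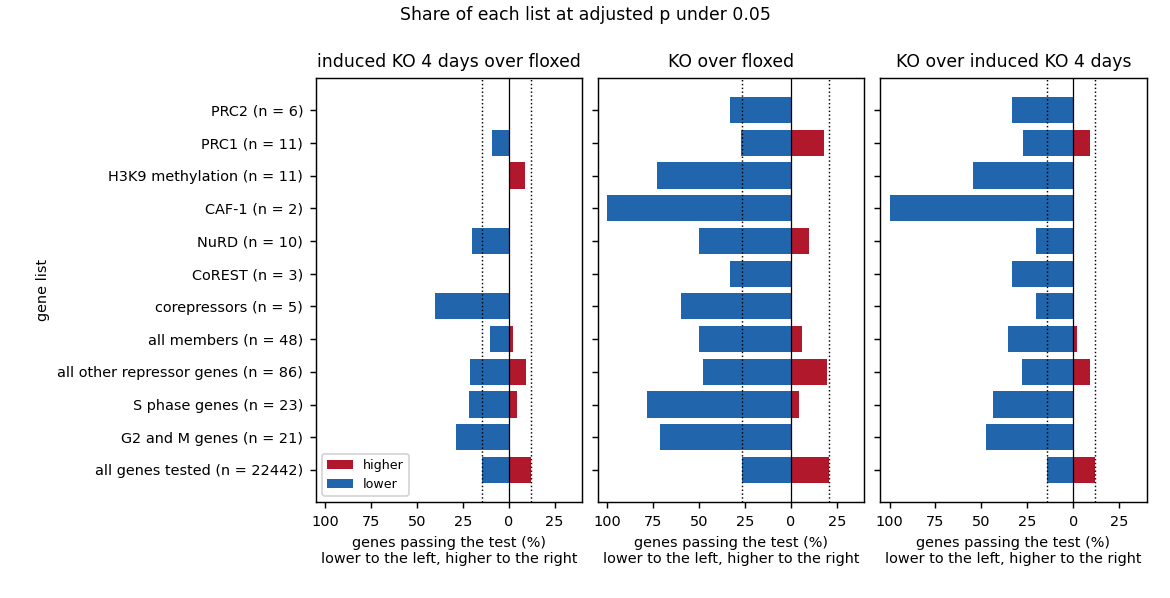
Percent of each gene list that passed an adjusted p under 0.05 in the 3 comparisons, lower genes drawn to the left in blue and higher genes to the right in red, with dotted lines at the shares of all 22442 genes tested; n is the number of genes tested per list. In KO over floxed the lower share is 50% for all members, above the line at 26.4%, and is higher still for the S phase and the G2 and M genes.

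Markers of other cells moved too. All 18 fibroblast markers were higher in KO over floxed, with a median of 0.61, and 13 were higher after 4 days, with 7 of 18 still called in KO with slide as a block. Among all genes 20.5% were higher and 26.4% lower in KO over floxed. The higher share of all genes was 11.9% after 4 days, and 9.57% in KO with slide as a block. All 18 were well above background on all 9 arrays, and their mean level was 2.76 to 2.84 in floxed, 3.11 to 3.27 after 4 days and 3.35 to 3.47 in KO. Of 15 primitive endoderm markers 12 passed the filter, 2 of them only through a deleted group, so counts are given over the 10 measured in floxed. All 10 were higher in KO, with a median of 2.14 over them. Of the 10 ES cell markers 4 were lower and 2 higher in KO, with *Esrrb*, a pluripotency receptor, at -0.82 and *Tbx3* at 0.83. In RNA from whole cultures, fewer cells of a type and less RNA per cell cannot be told apart, and the part of these cell types in the members' differences was not tested.

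Genes that such complexes are known to silence were counted only where they were well above background on all floxed arrays, since the others passed the filter through a deleted group, where they are brighter. Of 9 such genes of the 2-cell embryo 7 were higher and 1 lower in KO over floxed, and 6 were already higher after 4 days, when 5 of 48 members were lower. Among all genes 20.5% were higher and 26.4% lower in KO over floxed, and 11.9% and 14.7% after 4 days. *Zscan4c*, the 2-cell gene that the study follows, rose by 3.27 after 4 days and 3.75 in KO. *Rif1*, a repressor of 2-cell genes, had estimates of 0.24 after 4 days (interval 0.05 to 0.42, adjusted p = 0.0662) and 0.04 in KO, and did not pass. Of 12 germline genes 8 were higher and 2 lower in KO, with *Smc1b*, a meiotic cohesin subunit, at 2.31 and *Sycp3* at -1.36. Of 19 developmental genes that Polycomb covers in ES cells 11 were higher and 3 lower. *Hand1*, which is also a trophectoderm marker, was well above background on all KO arrays and on no floxed array, and the neural regulator *Pax6* on all floxed arrays and on no KO array. After 4 days 3 germline and 4 Polycomb-covered genes were higher and 1 of each list was lower. Of 4 trophectoderm markers measured in floxed, 3 were higher and 1 lower in KO. The Polycomb-covered list also holds *Foxa2*, a primitive endoderm marker, and all 10 endoderm markers measured in floxed were higher in KO. The part of trophectoderm and endoderm cells in the differences of Polycomb-covered genes was not tested.

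**Figure D5:**
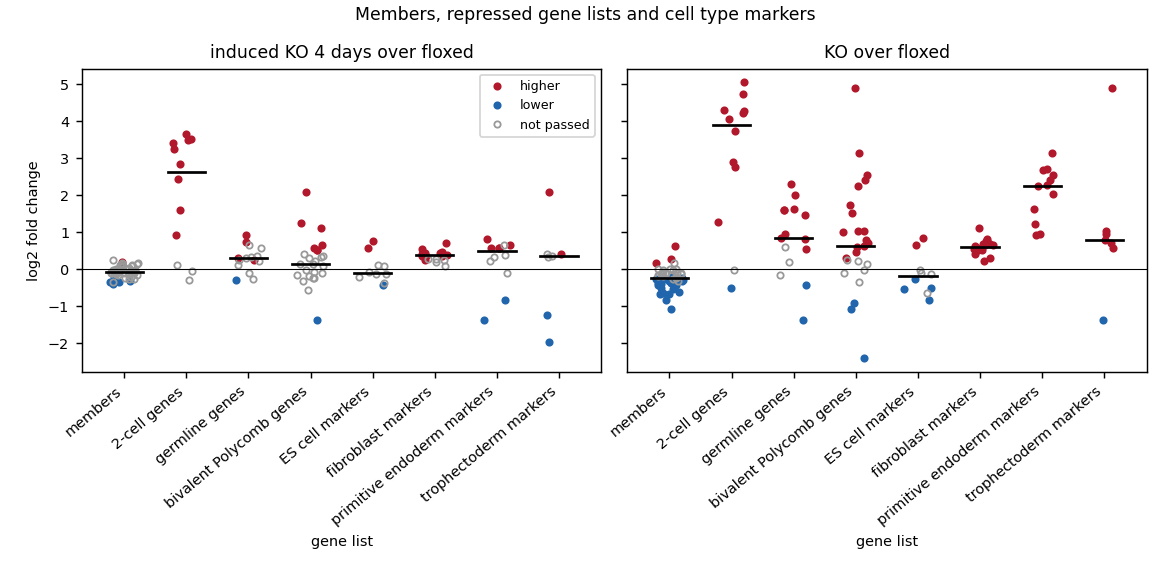
Log2 fold change of single genes after 4 days (left) and in KO (right) against floxed, for the 48 members, lists of genes the complexes are known to silence, and cell type markers; red points were higher, blue points lower and open points not past an adjusted p of 0.05, and black bars are medians. All genes that passed the filter are drawn, also those not measured in floxed. Members have medians of -0.08 and -0.23. The bars of the 12 2-cell genes are at 2.64 and 3.91 and include 3 genes not measured in floxed. The 9 measured in floxed have medians of 3.27 and 3.75. With normexp background correction the medians over the tested 2-cell genes, also those not measured in floxed, were 1.02 and 2.10.

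Promoters were searched because members that fell included genes of dividing cells. RefSeq gives a promoter on GRCm38.p6 (250 bases before to 50 bases after the start) for 44 of the 48 members, 56 promoters in all. The E2F site in the forms TTTCCCGC, TTTGGCGC, TTTCGCGC and TTTGCCGC, on either strand, was found in 5 of the 56, 8.93%, beside 2.26% of all 32851 promoters. The E-box CACGTG was found in 8 of the 56, 14.3%, beside 7.15% of all. The orphan receptor site CAAGGTCA was found in 0 of the 56 and in 1.56% of all. None of these motifs holds the letters of another, and a match is only a match of letters.

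The E2F letters were in the promoters of *Hells*, *Ezh2* and *Cbx3*, which were lower in KO over floxed, and of *Suz12* and *Suv39h1*, which did not pass. The sequences given are those of *Hells* and *Ezh2*, with the largest falls of the 5, and *Suz12*, whose signal differed by 0.01, read 5′ to 3′ on the strand of the gene with the E2F letters in capitals. The windows are chr19:38930740-38931039 on the plus strand for *Hells*, chr6:47594981-47595280 on the minus strand for *Ezh2*, and chr11:79992856-79993155 on the plus strand for *Suz12*. The letters begin at position -62 in *Hells*, 4 in *Ezh2* and -219 in *Suz12*, counted from the transcript's start.
Hells: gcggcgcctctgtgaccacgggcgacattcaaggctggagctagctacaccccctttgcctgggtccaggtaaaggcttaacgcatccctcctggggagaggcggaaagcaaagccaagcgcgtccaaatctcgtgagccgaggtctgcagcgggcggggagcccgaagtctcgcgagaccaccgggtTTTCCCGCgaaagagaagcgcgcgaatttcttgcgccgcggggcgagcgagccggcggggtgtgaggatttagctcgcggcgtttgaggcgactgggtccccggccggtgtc
Ezh2: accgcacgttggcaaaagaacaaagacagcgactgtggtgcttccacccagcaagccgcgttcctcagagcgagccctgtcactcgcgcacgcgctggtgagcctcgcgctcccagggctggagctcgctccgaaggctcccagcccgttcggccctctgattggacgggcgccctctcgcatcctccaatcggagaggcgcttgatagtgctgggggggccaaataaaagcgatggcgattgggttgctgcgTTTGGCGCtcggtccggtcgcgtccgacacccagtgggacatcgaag
Suz12: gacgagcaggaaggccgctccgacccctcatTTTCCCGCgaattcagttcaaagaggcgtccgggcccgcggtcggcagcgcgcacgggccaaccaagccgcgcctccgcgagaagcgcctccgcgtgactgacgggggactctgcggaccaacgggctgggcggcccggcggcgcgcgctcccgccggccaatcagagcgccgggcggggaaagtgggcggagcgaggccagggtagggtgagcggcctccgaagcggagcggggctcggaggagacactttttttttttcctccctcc

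The E-box was in promoters of *Bmi1*, *Cbx5*, *Chaf1a*, *Ehmt2*, *Max*, *Rbbp4* and *Rcor2*. In KO over floxed *Bmi1* was higher, *Cbx5*, *Chaf1a* and *Ehmt2* were lower, *Max* and *Rcor2* did not pass, and *Rbbp4* differed in direction between its probes.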

How the data were processed

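RNA of 9 samples was measured on 9 single-colour Agilent 8 × 60K mouse arrays. Scanner files deposited by the authors hold the intensity of each spot as a processed Cy3 signal, linear and background-subtracted, and Agilent Feature Extraction 10.7.3.1 is the software in the submitters' processing notes. The deposited values of the whole series are 1 signal column per group, each equal to the geometric mean of the 3 arrays of that group times a constant. Its offset to the mean log2 intensity was -8.37 for floxed, -8.48 for induced KO 4 days and -8.43 for KO, with medians of the log2 column of -3.04, -3.04 and -3.01, and the software that made it is named as NIA Array Analysis with settings not given in the sources used here.

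Using R 4.3.3 with data.table, version 1.17.8, log2 intensities were centred on the 75th percentile over the 59305 spots of an array. Control and outlier spots (117 to 178 per array) were left out and the spots of each of 55681 probes averaged. A probe had to be well above background on all arrays of some group, and of the probes left the brightest was used for its gene. Genes were named through RefSeq accessions for 27235 probes and otherwise by the array's own symbols. The 22442 genes were tested in 1 fit with limma 3.58.1 (lmFit and eBayes), Benjamini-Hochberg adjusted over all genes of a comparison, at an adjusted p under 0.05, and with over 2-fold as a second limit. Array coordinates are on mm9. No spot was saturated, and 3 arrays per group limit the precision. The method was tested on simulated data. Replicate numbers are positions on the slides.

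Members and gene lists were chosen with earlier results of these data known. The other lists hold further genes of the same pathways, 2-cell, germline and Polycomb-covered genes, S phase and G2 and M genes, and markers of ES cells, fibroblasts, primitive endoderm and trophectoderm. Named are up to 12 called members in each direction of a comparison, *Kdm1a*, *Trim28* and *Ehmt2* in any case, the other members by value or range, and up to 3 called genes of another list with the largest change. *Pax6*, *Sycp3* and the members shown probe by probe were chosen after their values were seen. Alternatives were normexp background correction (offset 50), quantile normalization, scaling by the median of detected probes, no or a stricter filter on dim probes, slide as a block or only the slide that holds both groups, the mean of a gene's probes, outlier spots kept, only the arrays compared, an intensity trend in eBayes, each array left out, and the series table of the authors.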

Additional observations from a re-analysis of the deposited data

How the results depend on the processing

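No paired analysis was possible because array and replicate are not linked in the labels. For KO over floxed, quantile normalization gave 15 lower members and a median of -0.131, and slide as a block 12 lower and 0 higher members and a median of -0.287. *Cbx7* was no longer past 2-fold with normexp correction or with the mean of a gene's probes, which left 0 such members under each. Leaving out 1 array gave 19 to 22 lower and 1 to 2 higher members. For induced KO 4 days over floxed, higher members numbered 4 with quantile normalization (median -0.0204), 3 with an intensity trend, 2 with the stricter filter, 2 with the mean of probes, and 0 with no filter, with slide as a block and on slide 1 only. Lower members numbered 10 with the trend, and 2 with no filter, with the block and on slide 1 only. Leaving out 1 array gave 2 to 7 lower and 0 higher members. For KO over induced KO 4 days, higher members numbered 2 with quantile normalization, 2 with the trend, 3 with the mean of probes, and 0 with no filter, with the block and on slide 2 only, where 8 were lower. Leaving out 1 array gave 13 to 18 lower and 0 to 2 higher members.

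The direction turned for *Ehmt2* (0.0923) after 4 days and *Trim28* (0.0242) in KO over floxed with quantile normalization, for *Rif1* (-0.0312) in KO over floxed with slide as a block, and for *Gatad2a* (0.311) and *Rbbp4* (0.348) in KO over floxed with the mean of probes. The causes were not tested. The series table has 1 column per group and allowed no test. With normexp correction the median of the tested 2-cell genes, also those not measured in floxed, was 1.02 after 4 days and 2.10 in KO. The next counts are over all genes of a list that passed the filter, also those not measured in floxed. Slide as a block took the higher Polycomb-covered genes from 16 to 10 in KO and from 7 to 2 after 4 days. It took the higher germline genes after 4 days from 4 to 1. The higher share of all genes went from 20.5% to 9.57% in KO and from 11.9% to 4.75% after 4 days. Each group has 3 arrays, and the SE in KO over floxed ranged from 0.0523 for *Hells* to 0.151 for *Gatad2b*.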
